A study of Mus musculus with 18 samples.

Results

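The transcription and chromatin factors that have been tied to the choice of an odorant receptor (OR) gene were followed in sorted cells of the mouse main olfactory epithelium (MOE). They are 10 genes, taken by symbol from the 23359 gene symbols of the table, namely Lhx2, Ldb1, Emx2, Ebf1, Ebf2, Ebf3, Ebf4, Kdm1a, Lbr and Bptf. All 10 had a value in each of the 18 libraries and all 10 passed the filter on low values. They were picked by symbol, with earlier results of these data known.

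A mature olfactory sensory neuron (OSN) transcribes 1 receptor gene and keeps the others in heterochromatin. In OR-expressing OSNs, Lhx2 and the Ebf proteins bind the enhancers of OR genes, Ldb1 joins Lhx2-bound enhancers into hubs, and histone demethylation by Kdm1a precedes the first receptor transcript. A smaller class of OSNs expresses trace amine-associated receptors (TAARs) from the Taar gene cluster in place of an OR.

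The Taar5 line carried Taar5-ires-Cre and lox-L10-GFP, and the Taar6 line carried Taar6-ires-Cre and lox-ZsGreen, so that Cre made from the receptor's own transcript switched on the reporter and the negative cells came from mice with the same alleles. From the Taar5 line, aged 11 to 14 days, 7 libraries were made of reporter-positive cells (Taar5+) and 9 of reporter-negative cells (control). From the Taar6 line, aged 16 to 17 days, 1 library was made of reporter-positive cells (Taar6+) and 1 of reporter-negative cells. The labels give the strain as C57BL/6, while the reporting summary of the study gives a mixed background and an older age in weeks. Control cells are all reporter-negative cells of the epithelium, OR OSNs for the most part, and how many mice went into a library is not given in the sources used here.

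Expression is given in TPM, which corrects for transcript length and is scaled to a sum of 1000000 per library, and the sequencing depth behind the values is unknown. The 5 markers of mature OSNs were above 0 in every library of the Taar5 line, with Omp from 3908 to 20070 TPM and the least abundant, Cngb1, from 13.8 to 211 TPM. Of these Stoml3 was called lower in Taar5+ cells (medians of 13650 TPM in controls and 5531 TPM in Taar5+ cells, log2 difference -1.42, adjusted p = 0.00994 in limma). The Taar5+ libraries held 225 to 5525 TPM of OR transcripts (up to 1999.5 TPM without Taar5+ replicate 5). Controls held 6174 to 20251 TPM (from 13477 TPM without control replicate 2). Control replicate 2 stood apart: 5939 rows of the table were above 0, against 9866 to 17808 in the other 15 libraries of the line, and of 3204 abundant genes (median of 50 TPM or more over the rest of the line) it listed 639 at 0, where no other library of the line listed more than 47. Its summed sustentacular markers reached 6325 TPM and its gland markers 5175 TPM, against medians of 410 and 60.2 TPM in controls, and Taar5+ replicate 5 reached 8737 TPM of sustentacular markers. The part of these cells and of incomplete libraries in the results was not tested, and values without control replicate 2 are given where that library moves a result. In sorted cells measured in bulk, fewer cells of a type and less RNA per cell cannot be told apart.

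The members lie apart in the genome (GENCODE M21, build GRCm38, which is mm10). Lhx2 is on chromosome 2 (38339281 to 38369733, plus strand), as is Ebf4 (130295169 to 130370481, plus strand). Ldb1 (46031570 to 46045214, minus strand) and Emx2 (59458372 to 59465357, plus strand) are on chromosome 19, and Ebf1 (44617317 to 45008091, plus strand) and Bptf (107033081 to 107132127, minus strand) on chromosome 11. Ebf2 is on chromosome 14 (67233292 to 67430918, plus strand), Ebf3 on chromosome 7 (137193673 to 137314445, minus strand), Kdm1a on chromosome 4 (136550540 to 136602723, minus strand) and Lbr on chromosome 1 (181815335 to 181843046, minus strand). None is near the Taar cluster on chromosome 10. The Ebf paralogues shared 0 transcript words of 50 bases with any other gene, as did Lhx2, Ldb1, Emx2 and Kdm1a, so reads of that length can be told apart between the paralogues. Smart-seq2 does not mark strand, and exons of 5 members overlap a gene of the opposite strand: 9.24% of the exon bases of Lbr overlap Dnah14, 8.79% of those of Emx2 overlap Emx2os, 6.12% of those of Ebf2 overlap Gm10860, 3.85% of those of Ebf3 overlap Gm45278 and 3.84% of those of Ldb1 overlap Pprc1. Reads from these stretches cannot be assigned to a partner by strand. Values are listed for Emx2os and Pprc1 but not for Dnah14, Gm10860 and Gm45278. How such reads were counted is not given, so the values of these members may include reads of the partner.

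The letters TAATTA, the core bound by LIM homeodomain proteins such as Lhx2, and CCCNNGGG, the core bound by Ebf proteins, were looked for in the members' own promoters, because they are the letters these factors recognise in OSN enhancers. The window runs from 250 bases before to 50 bases after a start site, in RefSeq sequence on GRCm38.p6. Both motifs were searched on both strands, and being palindromic they read the same on each. Of 13 windows from 9 members (Ebf2 was not matched), 1 held TAATTA and 3 held CCCNNGGG. Over all 32851 windows the shares were 5.29% and 13.7%. Of the 11 windows of Taar genes, 1 held TAATTA and 0 held CCCNNGGG, and of the 944 windows of OR genes 18.6% and 3.07% did. G and C made up 36.7% to 77.0% of the letters in member windows and 30.7% to 48.7% in Taar windows. The shares were not adjusted for base composition. The windows with a match are shown with the matching letters in capitals: Emx2 (chr19:59458440-59458739, plus strand), Taar8b (chr10:24092245-24092544, minus strand), the second start of Lhx2 (chr2:38351058-38351357, plus strand), where a pair of overlapping CCCNNGGG matches forms a single run, Ebf3 (chr7:137314396-137314695, minus strand) and the second start of Ldb1 (chr19:46039572-46039871, minus strand).
Emx2: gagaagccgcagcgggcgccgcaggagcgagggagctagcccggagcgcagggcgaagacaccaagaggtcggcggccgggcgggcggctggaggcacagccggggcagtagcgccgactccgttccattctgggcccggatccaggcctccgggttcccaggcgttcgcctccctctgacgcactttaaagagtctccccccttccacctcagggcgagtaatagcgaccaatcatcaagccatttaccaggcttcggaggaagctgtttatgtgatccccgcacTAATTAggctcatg
Taar8b: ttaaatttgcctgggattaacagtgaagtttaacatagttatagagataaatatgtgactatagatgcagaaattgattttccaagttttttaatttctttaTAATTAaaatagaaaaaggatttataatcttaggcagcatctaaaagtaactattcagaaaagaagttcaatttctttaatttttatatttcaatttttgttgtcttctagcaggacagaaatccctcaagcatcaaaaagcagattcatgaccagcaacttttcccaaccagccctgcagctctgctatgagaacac
Lhx2: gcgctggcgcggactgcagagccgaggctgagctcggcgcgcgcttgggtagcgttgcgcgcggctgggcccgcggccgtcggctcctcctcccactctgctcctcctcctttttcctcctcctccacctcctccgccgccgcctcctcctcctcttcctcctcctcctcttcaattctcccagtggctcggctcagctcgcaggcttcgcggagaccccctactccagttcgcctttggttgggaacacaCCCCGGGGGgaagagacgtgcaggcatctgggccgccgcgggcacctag
Ebf3: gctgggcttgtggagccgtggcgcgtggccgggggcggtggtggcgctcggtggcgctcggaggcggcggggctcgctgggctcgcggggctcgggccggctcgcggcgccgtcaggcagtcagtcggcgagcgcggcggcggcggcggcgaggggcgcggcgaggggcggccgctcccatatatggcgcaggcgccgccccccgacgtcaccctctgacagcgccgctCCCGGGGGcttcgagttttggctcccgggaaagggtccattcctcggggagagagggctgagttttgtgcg
Ldb1: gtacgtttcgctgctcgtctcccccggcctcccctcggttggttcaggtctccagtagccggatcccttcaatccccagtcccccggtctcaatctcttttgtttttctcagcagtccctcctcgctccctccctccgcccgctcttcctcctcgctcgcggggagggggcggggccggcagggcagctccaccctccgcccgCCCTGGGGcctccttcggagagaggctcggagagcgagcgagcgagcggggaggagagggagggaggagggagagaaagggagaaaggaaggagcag
In Emx2 the capitals mark a homeodomain core in the window of a homeodomain gene, and in Ebf3 an Ebf core in the window of an Ebf gene. These matches describe the letters of the windows only.

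The comparison of Taar5+ cells with controls asked whether OSNs that express TAARs carry these factors at other levels than OSNs that express ORs. None of the 10 members passed the threshold in limma, at an adjusted p under 0.05 over 12502 genes (0 of 10, against 0.168% of all genes tested). None had an unadjusted p under 0.05 either, a level that 7.05% of all genes reached. Estimates were below 0 for 7 members and above 0 for 3, with a median log2 difference of -0.03 against 0.02 over all genes. For all 10 members the Taar5+ and control libraries overlapped, while 0.0881% of the genes tested (without the Taar genes) did not overlap between the groups. A p-value above the threshold does not show equal levels, and the intervals given below bound each difference. Standard errors ran from 0.23 for Ebf1 to 0.95 for Ebf4, so the libraries fixed some members much more closely than others. The values by library follow, by role.

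**Figure D1:**
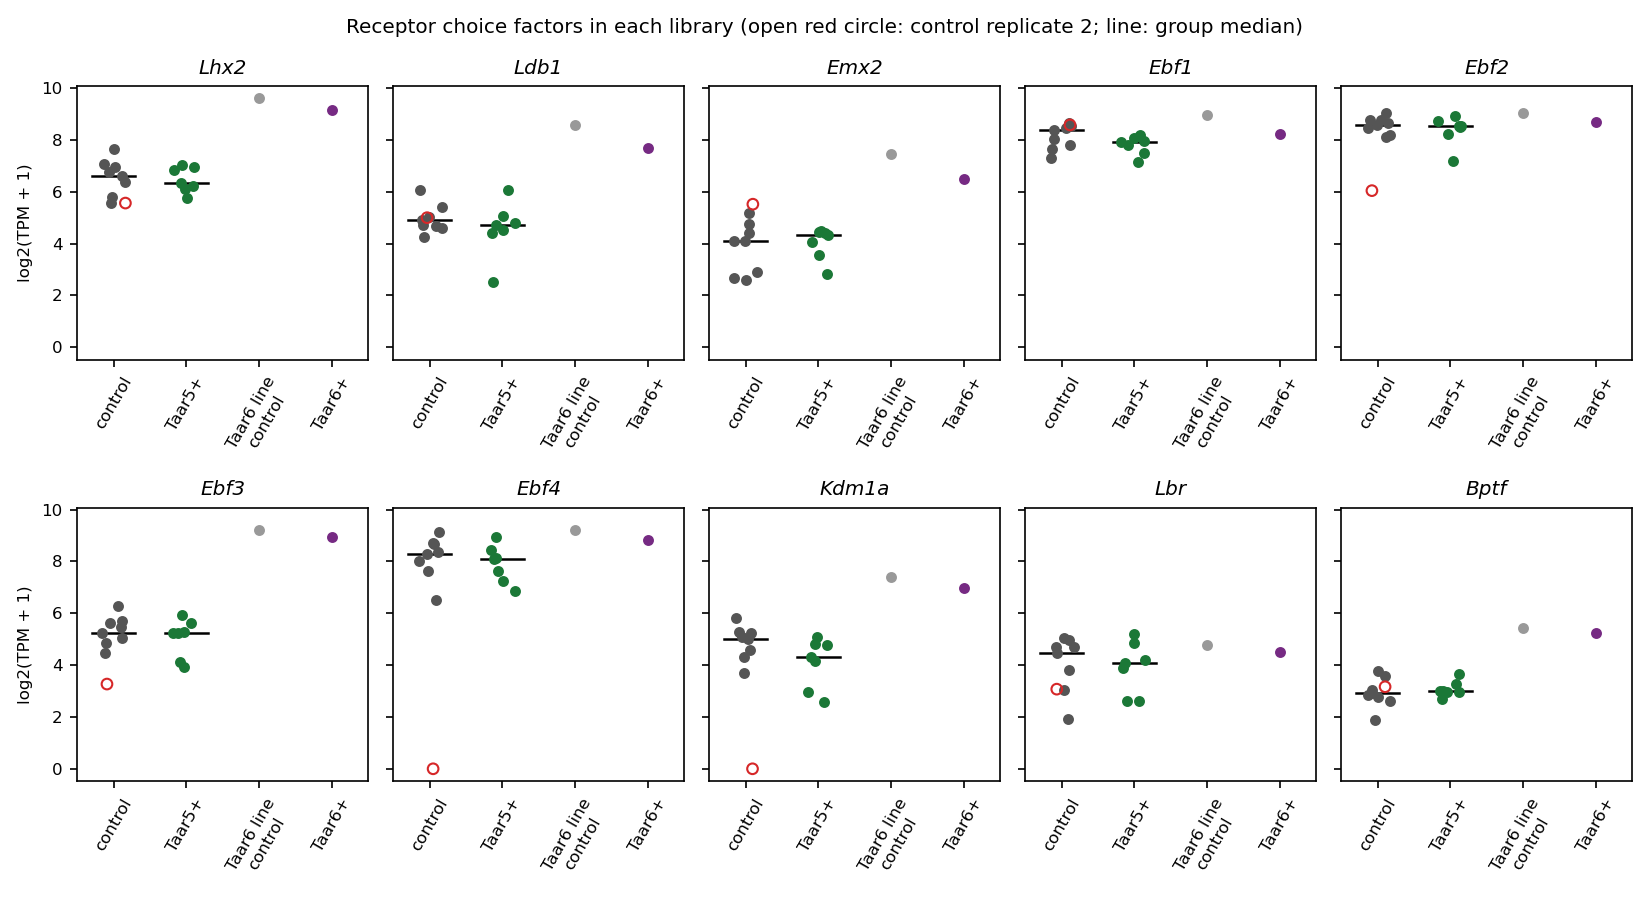
Level of each of the 10 factors as log2(TPM + 1) on the vertical axis, with 1 point per library, by group. Black lines are group medians of the 9 control and 7 Taar5+ libraries, and the open red circle is control replicate 2. The points of the 2 groups of the Taar5 line overlap in every panel, and the single libraries of the Taar6 line lie above both groups for Lhx2, Ldb1, Emx2, Ebf3, Kdm1a and Bptf.

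Lhx2 is a LIM homeodomain factor that OSNs need to mature and to express most OR genes. Its lowest, median and highest values were 46.2, 97.3 and 197.5 TPM in the 9 controls and 53.3, 80.4 and 130.9 TPM in the 7 Taar5+ libraries. Every Taar5+ library lay inside the range of the controls. The log2 difference was -0.02 (SE 0.33, 95% interval -0.70 to 0.66, adjusted p = 0.996 in limma), and an exact two-sided permutation test over the libraries gave p = 0.953. The interval corresponds to 0.615 to 1.58 times the control level on the log2(TPM + 1) scale. When limma weighted the libraries by their own noise (array weights), Lhx2 had a difference of -0.69 and an adjusted p of 0.0476, the 1 call of a member in the 29 alternatives, whose adjusted p ran from 0.0476 to 1. In that fit 10.6% of all genes tested passed, 9.18% of all genes tested on the lower side, and the median of all genes moved to -0.16.

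Ldb1 encodes the LIM domain-binding protein that couples Lhx2-bound enhancers. Controls held 17.9, 28.9 and 66.5 TPM (lowest, median, highest) and Taar5+ libraries 4.71, 25.2 and 66.8 TPM. Both the highest and the lowest value belonged to Taar5+ cells, 66.8 TPM in replicate 1 and 4.71 TPM in replicate 4, the Taar5+ library with the fewest rows above 0 (9866). Taar5+ minus control came to -0.38 on the log2 scale (SE 0.44, 95% interval -1.29 to 0.53, adjusted p = 0.956 in limma). It ran from -0.63 without Taar5+ replicate 1 to -0.04 without Taar5+ replicate 4. Lhx2 stood at a median of 3.03 times Ldb1 in controls (1.49 to 4.61) and 3.29 times in Taar5+ cells, where 6 libraries held 1.70 to 4.62 and replicate 4 held 27.8.

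Emx2, a homeodomain factor of the empty spiracles family, is required for normal OR expression in the MOE. Controls held 5.12, 16.2 and 44.8 TPM and Taar5+ libraries 6.04, 19.2 and 21.1 TPM. The control values spread over the wider range, with 3 controls between 5.12 and 6.57 TPM and the highest value in control replicate 2. The log2 difference was -0.02 (SE 0.50, 95% interval -1.07 to 1.04, adjusted p = 0.997 in limma) and 0.17 without control replicate 2. The interval over all libraries corresponds to 0.476 to 2.06 times the control level.

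The Ebf genes encode the helix-loop-helix factors (Olf/Ebf) that bind OSN promoters and enhancers. Ebf1 held 156, 329 and 403 TPM in controls and 140, 239 and 288.5 TPM in Taar5+ libraries. The groups overlapped, but 5 of 9 controls lay above every Taar5+ library. Ebf1 had the most precise estimate of the 10 members, a log2 difference of -0.36 (SE 0.23, 95% interval -0.84 to 0.11), and the lowest p-values, an unadjusted p of 0.125 and an adjusted p of 0.881 in limma, with p = 0.117 in the exact permutation test. The difference was below 0 in all 29 alternatives, from -0.51 to -0.25, with adjusted p from 0.386 to 0.995.

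Ebf2 held 64.9, 376.7 and 521 TPM in controls and 143, 372 and 482 TPM in Taar5+ libraries. The low control was replicate 2, and the other 8 controls lay between 279 and 521 TPM. The log2 difference was 0.09 (SE 0.35, adjusted p = 0.984 in limma) over all libraries and -0.19 (SE 0.22, 95% interval -0.65 to 0.27) without control replicate 2. Ebf3 was the least abundant of the family, with 8.63, 36.9 and 77.2 TPM in controls and 14.3, 37.1 and 59.7 TPM in Taar5+ libraries, medians that lay within 1 TPM of each other. The lowest control was again replicate 2, and the other 8 held 21.2 TPM or more. Its log2 difference was -0.06 (SE 0.43, adjusted p = 0.992 in limma), and -0.29 (SE 0.34, adjusted p = 0.857 in limma) without that library.

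Ebf4 gave the widest interval. The controls held 258, 0, 307, 89.6, 401, 199, 557, 413 and 323 TPM in replicates 1 to 9, and the Taar5+ libraries held 115, 268 and 496.5 TPM (lowest, median, highest). Ebf4 was thus listed at 0 in control replicate 2 and lay above at least 91.0% of gene symbols in each of the other 8 controls. With that library the log2 difference was 0.65 (SE 0.95, 95% interval -1.34 to 2.65, adjusted p = 0.962 in limma), and it was -0.25 (SE 0.35, 95% interval -0.98 to 0.47, adjusted p = 0.883 in limma) without it. The sign of the estimate therefore rested on 1 library.

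Kdm1a (Lsd1) removes methyl groups from histone H3 and is switched off after a receptor has been chosen. The controls held 37.6, 0, 36.6, 54.8, 32.7, 12.0, 23.1, 18.7 and 30.8 TPM in replicates 1 to 9. Taar5+ libraries held 26.3, 4.94, 16.99, 32.9, 27.4, 6.72 and 18.7 TPM in replicates 1 to 7. Kdm1a was the second member listed at 0 in control replicate 2, and among the other libraries the 2 lowest values, 4.94 and 6.72 TPM, were those of Taar5+ cells. The log2 difference was -0.23 (SE 0.70, 95% interval -1.69 to 1.23, adjusted p = 0.981 in limma) over all libraries and -0.77 (SE 0.42, 95% interval -1.66 to 0.11, unadjusted p = 0.0819, adjusted p = 0.564 in limma) without control replicate 2. No member came nearer to the threshold in that fit, in which 1.19% of all genes passed and the median of all genes was -0.17. Immature OSNs were marked by Gap43, Gng8, Dcx, Stmn2 and Cxcr4. The summed level of these markers ran from 277 to 2520 TPM (median 1814) in controls and from 992 to 1619 TPM (median 1183) in Taar5+ libraries. Cxcr4 was listed at 0 in 3 controls and 5 Taar5+ libraries. The part of immature cells in the values of Kdm1a was not tested.

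Lbr, the lamin B receptor, holds heterochromatin at the nuclear envelope and is low in mature OSNs, whose OR genes gather in the interior of the nucleus. Controls held 2.79, 21.0 and 31.7 TPM and Taar5+ libraries 5.10, 15.9 and 36.0 TPM. Values in both groups spread over about the same range. Between the groups the log2 difference was -0.05 (SE 0.55, 95% interval -1.21 to 1.11, adjusted p = 0.995 in limma). Bptf, the largest subunit of the NURF remodelling complex, was the least abundant member, with 2.65, 6.63 and 12.5 TPM in controls and 5.41, 6.98 and 11.7 TPM in Taar5+ libraries. Its log2 difference was 0.12 (SE 0.42, 95% interval -0.75 to 0.99, adjusted p = 0.981 in limma), and its control range enclosed every Taar5+ library.

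**Figure D2:**
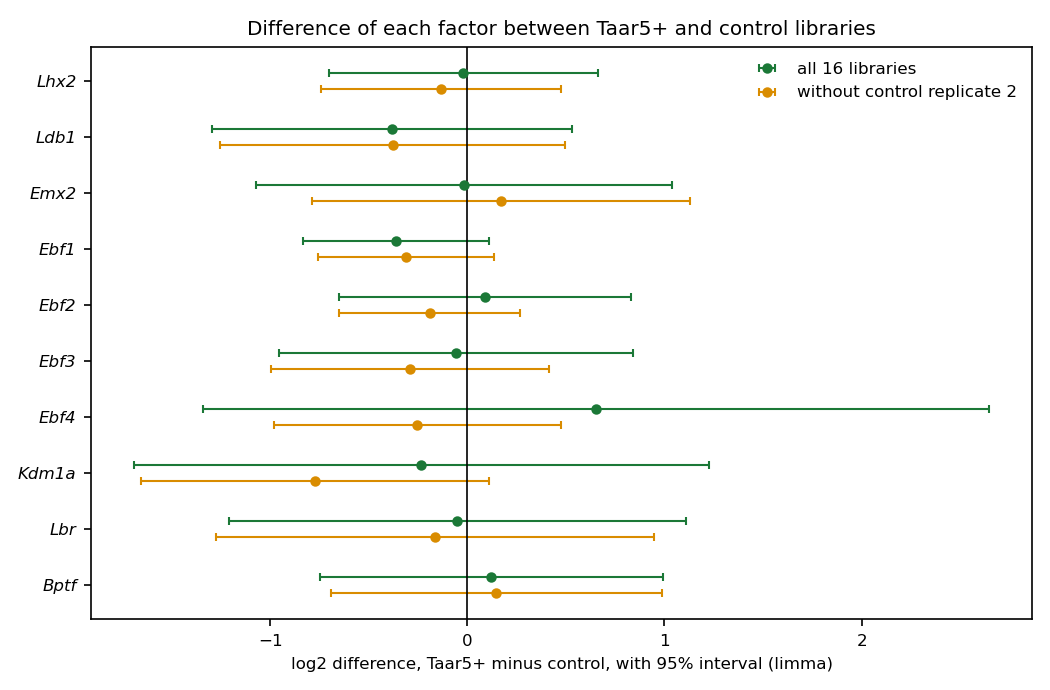
Log2 difference in log2(TPM + 1), Taar5+ minus control, on the horizontal axis for each factor. Points are limma estimates and bars 95% intervals, in green for all 16 libraries and in orange without control replicate 2. All intervals include 0, and Ebf4 moves from 0.65 to -0.25 when that library is left out.

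Without control replicate 2, 8 of the 10 members had estimates below 0, with a median of -0.22 against a median of -0.17 over all genes, so the whole table shifted in the same direction. The estimates were also steadier without it, with the interval of Ebf4 narrowing from 0.395 to 6.27 times the control level to 0.508 to 1.39 times, and that of Ebf2 from 0.637 to 1.78 times to 0.638 to 1.2 times.

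The members were sorted by hand into 3 tiers of abundance in the Taar5 line, since TPM can be compared between genes within a library. The tiers were drawn from the levels in these libraries, so the counts below describe them and do not test them. The lowest tier is a gradient, from a median of 37.0 TPM for Ebf3 to 6.85 TPM for Bptf over the 16 libraries. Ebf2, Ebf4 and Ebf1 lay above 94.97% to 96.9% of the genes tested by their median over the 16 libraries, Lhx2 above 84.8%, and Ebf3, Ldb1, Kdm1a, Emx2, Lbr and Bptf above 68.5%, 61.1%, 59.96%, 52.4%, 50.8% and 31.8%. Ebf1, Ebf2 and Ebf4 were all above Lhx2 in 8 of 9 controls and in 6 of 7 Taar5+ libraries. The exceptions were control replicate 2, where Ebf4 was listed at 0, and Taar5+ replicate 4, with 115 TPM of Ebf4 and 131 TPM of Lhx2. Lhx2 lay above each of the other 6 members in all 9 controls and all 7 Taar5+ libraries. The tiers did not hold in the Taar6 line, where Lhx2 was above all 4 Ebf genes in 2 of 2 libraries.

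By median TPM the controls ran Ebf2, Ebf1, Ebf4, Lhx2, Ebf3, Kdm1a, Ldb1, Lbr, Emx2, Bptf, and the Taar5+ libraries ran Ebf2, Ebf4, Ebf1, Lhx2, Ebf3, Ldb1, Emx2, Kdm1a, Lbr, Bptf. Of the 18 pairs of neighbours in these orders, 0 differed at an adjusted p under 0.05 in an exact two-sided sign-flip test within libraries. The 9 and 7 libraries allow an unadjusted p no smaller than 0.00391 and 0.0156. After adjustment over 18 pairs no pair could pass alone, even with the same order in every library. The pairs were also taken from the medians of the same libraries, so this count does not decide whether neighbours differ. The smallest adjusted p, 0.0703, was reached by 5 pairs, among them Lhx2 over Ebf3, with a log2 difference of 1.37 ± 0.48 (SD, n = 9 controls; higher in 9 of 9) and 1.41 ± 0.97 (SD, n = 7 Taar5+ libraries; higher in 7 of 7). In Taar5+ cells Ebf1 exceeded Lhx2 in 7 of 7 libraries by 1.33 ± 0.69 (SD, exact sign-flip adjusted p = 0.0703). Kdm1a and Ldb1 stood in opposite order in the groups, but in controls Kdm1a was above Ldb1 in only 3 of 9 libraries, so that pair was not ordered within the spread of the libraries.

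The 4 Ebf genes together held 454, 967 and 1267 TPM (lowest, median, highest) in controls, 751 TPM or more without control replicate 2, and 588, 927 and 1027 TPM in Taar5+ libraries. The share of Ebf2 in that sum had a median of 38.2% in controls and 40.1% in Taar5+ cells, that of Ebf1 30.0% and 26.4%, that of Ebf4 28.5% and 26.9% and that of Ebf3 3.84% and 3.68%. Median shares differed by at most a few percentage points between the groups, far less than single libraries did within them. Ebf2 was the largest of the family in 6 of 9 controls and 5 of 7 Taar5+ libraries, and Ebf3 in none. In control replicate 2 the share of Ebf1 was 83.8%, with Ebf4 listed at 0, and in the other controls Ebf1 ran from 16.1% to 42.2%. The summed Ebf level was 11.5 times that of Lhx2 in controls by the median (4.12 to 20.9) and 8.07 times in Taar5+ cells (6.35 to 18.8).

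**Figure D3:**
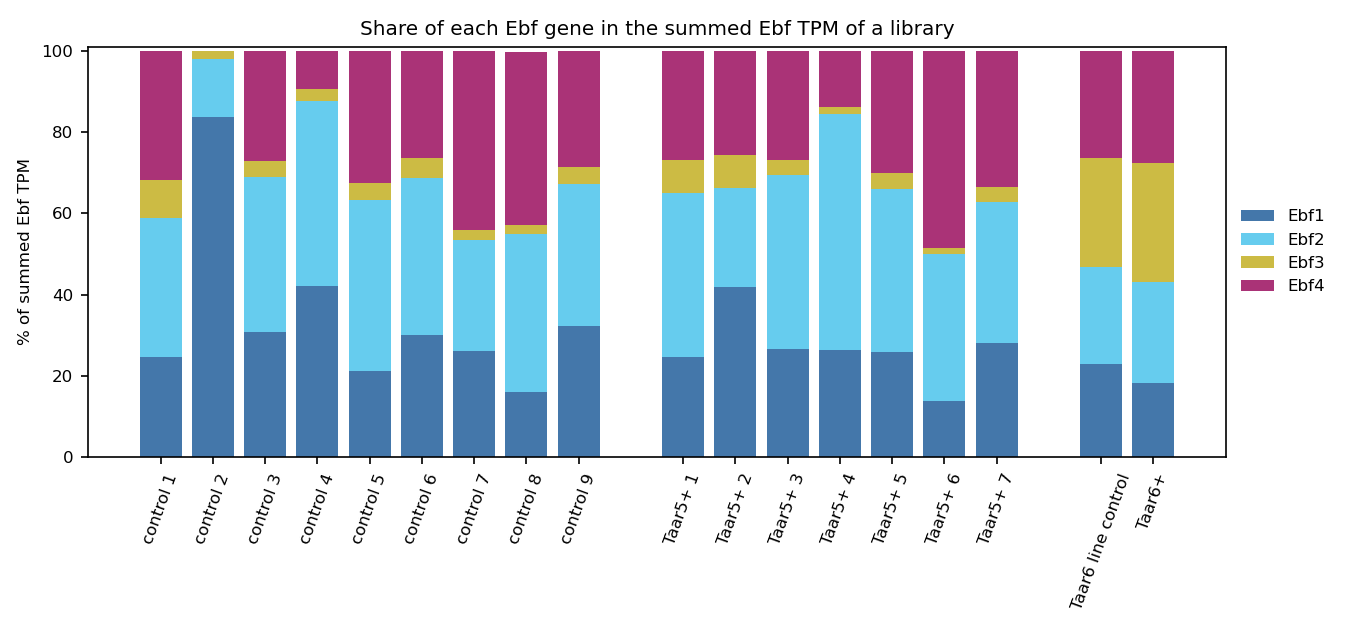
Share of Ebf1, Ebf2, Ebf3 and Ebf4 in the summed Ebf TPM of each of the 18 libraries, in percent on the vertical axis, with 1 stacked bar per library. Control replicate 2 has 83.8% Ebf1 with Ebf4 listed at 0, and Ebf3 takes 26.7% and 29.5% in the libraries of the Taar6 line against 1.60% to 9.48% in the other 16.

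The Taar6 line has 1 library per group, so its values have no replicate check and no test. All 10 members had lower values in Taar6+ cells than in the control of that line, as did 69.4% of the 15189 genes at 1 TPM or more in either library, and the median log2 difference was -0.39 for the members and -0.21 for all of these genes. Lhx2 was at 774 TPM in the control and 561 TPM in Taar6+ cells (log2 difference -0.46), and Ldb1 at 379 and 205 TPM (-0.88). Emx2, at 172.5 and 89.3 TPM (-0.94), differed most.

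Among the Ebf genes of this line Ebf1 was at 501 TPM in the control and 300.5 TPM in the positive cells, Ebf2 at 530 and 408 TPM, Ebf3 at 587 and 486 TPM, and Ebf4 at 584 and 455 TPM. Ebf3 was the largest of the family in the control and in Taar6+ cells alike, although it was the smallest in 15 of the 16 libraries of the Taar5 line. In the same order Kdm1a was at 165 and 124 TPM, Lbr at 26.3 and 21.7 TPM, and Bptf at 42.4 and 36.3 TPM, with Bptf above Lbr in 2 of 2 libraries, as it was in 4 of the 16 libraries of the Taar5 line. Both libraries exceeded all 16 of the Taar5 line for 6 members, Lhx2, Ldb1, Emx2, Ebf3, Kdm1a and Bptf, as they did for 22.9% of the genes tested. These are levels set side by side and not a test of the lines, because line, reporter and age cannot be told apart there and the values of the Taar6 line stand apart for common genes too: Gapdh was at 6.06 and 1.43 TPM in the libraries of the Taar6 line and at 436 to 1222 TPM in the other 16.

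The partners and neighbours of the members in their pathways were read in the same fit. Of 96 genes in 12 lists, 78 passed the filter on low values and 0 were called at an adjusted p under 0.05, against 0.168% of all genes. With all libraries 39 estimates lay above and 39 below 0, with a median log2 difference of -0.000561 against 0.02 over all genes. Without control replicate 2 the split was 21 above and 57 below, with a median of -0.27 against -0.17 over all genes, so the even split rested on that library. At an unadjusted p under 0.05 in limma, 0 of the 78 were higher and 5 lower, a share near the 5.38% of all genes that were lower. All 5 belonged to the list of other receptor class or zone factors. The lists were chosen with earlier results of these data known, so this is a description and not a test of that list.

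Lhx2 was nearly alone in its class. Of the 15 LIM homeodomain and LIM-only genes listed, 3 passed the filter, the LIM-only factors Lmo4, Lmo2 and Lmo1, which bind Ldb1 without contacting DNA. Lmo4 had medians of 63.5 TPM in controls and 40.6 TPM in Taar5+ cells (log2 difference -1.07, SE 0.64), Lmo2 of 17.2 and 21.3 TPM (-0.35, SE 0.93) and Lmo1 of 12.6 and 0 TPM (-1.43, SE 0.88), with adjusted p of 0.865, 0.981 and 0.874 in limma. All 3 estimates were below 0 and none passed. The single-stranded DNA-binding partners of Ldb1 included Ssbp2, with medians of 136 and 88.7 TPM (log2 difference 0.08, SE 0.61), Ssbp4 with 42.3 and 46.0 TPM (-0.09) and Ssbp3 with 26.6 and 31.0 TPM (0.43). Ssbp2 turned to -0.49 without control replicate 2 (adjusted p = 0.415 in limma), which held 2.70 TPM of it, and to -0.76 with array weights (adjusted p = 0.00536), and Lmo2 turned to 0.54 with array weights (adjusted p = 0.572). Lmo1 also passed with array weights (-2.36, adjusted p = 0.00629 in limma). In that fit 10 of the 78 related genes passed, all lower in Taar5+ cells, where 10.6% of all genes tested passed and 9.18% on the lower side. They came from the LIM list (1), the Ldb1 partners (1), H3K9 and H4K20 methylation (2), NURF and ISWI remodelling (1) and the class or zone factors (5).

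Zfp423, a zinc finger protein that binds Ebf proteins and blocks them, had medians of 13.1 TPM in controls and 6.21 TPM in Taar5+ cells (log2 difference -0.85, SE 0.61, adjusted p = 0.929 in limma), and its relative Zfp521 was at or below 2.44 TPM in the Taar5 line and was not tested. Emx1, the paralogue of Emx2, had medians of 2.98 and 0 TPM (-1.30, SE 0.70, adjusted p = 0.808 in limma). Neither passed the threshold.

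The chromatin lists had medians on both sides of 0 with all libraries, and below 0 in each case without control replicate 2. In that fit the median of all genes was itself -0.17. List medians lay on both sides of it, from -0.36 for the Kdm1a complex to -0.062 for the nuclear lamina and envelope. The Kdm1a complex had 10 of 11 genes tested, with 5 estimates above and 5 below 0 (2 and 8 without that library), with Hdac2 at medians of 64.5 and 36.8 TPM, Hdac1 at 36.0 and 35.4 TPM and Hmg20b at 32.0 and 23.6 TPM in controls and Taar5+ cells. Of the other H3K9 demethylases 5 of 8 had estimates above 0 (4 without control replicate 2), with Kdm3a at 40.5 and 36.2 TPM, and of the methyltransferases of H3K9 and H4K20 with their cofactors 5 of 10 (3 without it), with Suv420h2 (Kmt5c) at 68.1 and 47.7 TPM. Heterochromatin protein 1 and other readers had 4 above and 3 below 0 (2 and 5 without it), and Cbx3, the most abundant of them, held 143 and 142 TPM (log2 difference -0.0029, SE 0.30).

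Of the genes of the nuclear lamina and envelope, which share a compartment with Lbr, 9 of 11 had estimates above 0 with all libraries (median 0.12). Without control replicate 2 it was 4 of 11 (median -0.062). The median of all genes moved too, from 0.02 to -0.17, so the turn was not particular to this list. The list median lay above that of all genes in both fits. Banf1, a chromatin-binding protein of the envelope, held medians of 360 and 316 TPM (log2 difference 0.0049, SE 0.24, and -0.062 without control replicate 2), and Sun1, of the inner nuclear membrane, 189 and 206 TPM (0.04, SE 0.28, and -0.028 without it). The relatives of Bptf in NURF and ISWI complexes had 3 estimates above and 5 below 0 (1 and 7 without control replicate 2), with Rbbp7 at 112 and 100.5 TPM, and the cohesin and CTCF list had 6 above and 4 below (3 and 7 without it), with Smc1a at 60.6 and 58.3 TPM. None of the genes in these chromatin, lamina and cohesin lists had an unadjusted p under 0.05 in the main comparison. Setdb2, Setd8 (Kmt5a) and Baz1a passed with array weights, at -0.88, -0.93 and -1.53 (adjusted p = 0.0239, 0.00893 and 0.018 in limma).

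In the list of other receptor class or zone factors all 5 genes tested had estimates below 0, with a median of -1.72, and of -1.51 without control replicate 2. Nfix, a nuclear factor I protein, held 17.2, 35.4 and 81.0 TPM (lowest, median, highest) in controls and 1.02, 6.68 and 20.9 TPM in Taar5+ libraries. Of the 7 Taar5+ libraries, 6 lay below every control. Its log2 difference was -2.56 (SE 0.55, adjusted p = 0.0728 in limma), and without control replicate 2 it was -2.40 with an adjusted p of 0.0286. Tshz1, a zinc finger homeodomain factor, had medians of 37.7 and 7.57 TPM (-1.72, SE 0.68, adjusted p = 0.505 in limma), and Bcl11b, a zinc finger factor that acts in the choice between the classes of OR genes, 18.6 and 7.84 TPM (-1.36, SE 0.59, adjusted p = 0.614 in limma).

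The remaining pair, named after their values were seen, were Nfib (medians of 12.0 and 2.22 TPM, -1.77, SE 0.56, adjusted p = 0.304 in limma) and Nfia (4.44 and 0.886 TPM, -1.30, SE 0.47, adjusted p = 0.418 in limma). With array weights all 5 tested genes of the list passed, with adjusted p from 5.61e-05 for Nfix to 0.00168 for Bcl11b in limma. Lower median sums of several other markers went with the same comparison. Horizontal basal markers had medians of 97.95 TPM in controls and 5.01 TPM in Taar5+ cells, microvillar markers 122 and 5.73 TPM and neuronal progenitor markers 63.3 and 3.63 TPM. Taar5+ replicate 5 went the other way, at 181, 175 and 139 TPM, and lay above every control for basal and progenitor markers. Krt5, Krt14 and Trp63 were each listed at 0 in 1 control, replicate 2, and in 3, 2 and 4 of the 7 Taar5+ libraries. Their part in the lower values of this list was not tested. Whether these factors differ from the members in the size of their differences was not tested.

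**Figure D4:**
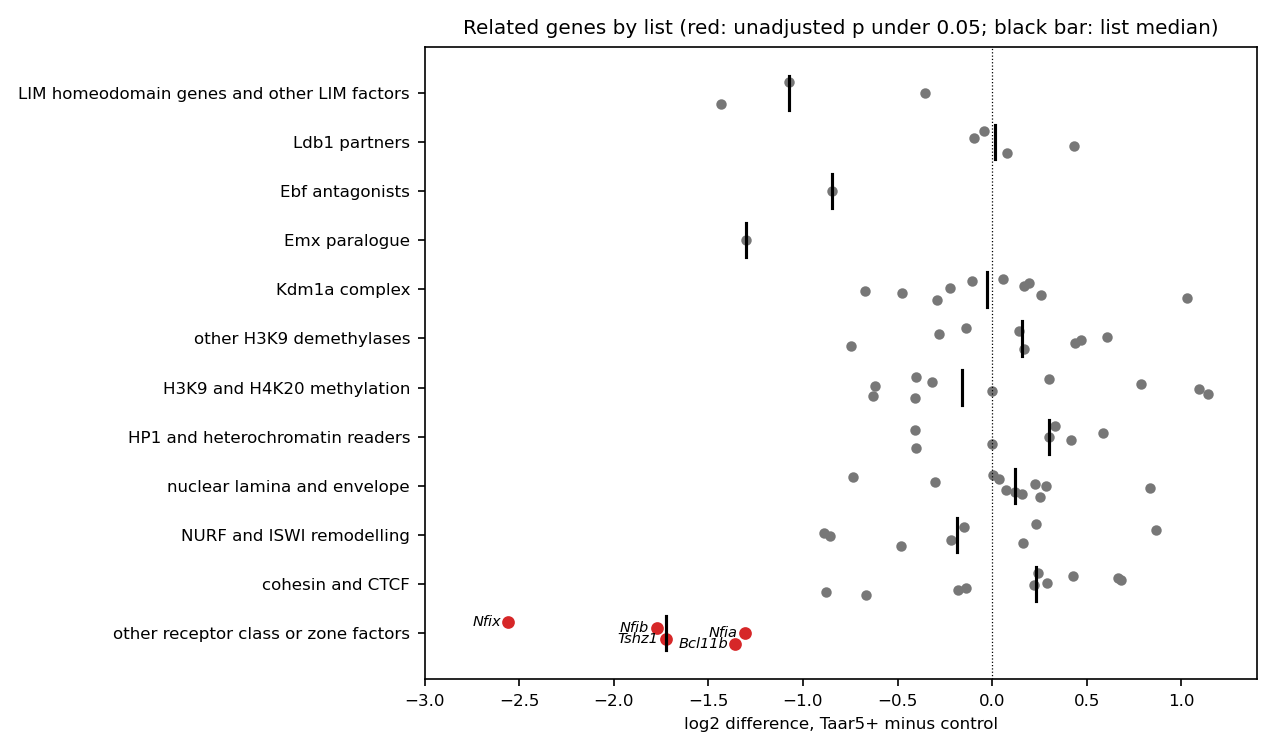
Log2 difference in log2(TPM + 1), Taar5+ minus control, on the horizontal axis for the 78 tested genes of the pathway lists, with 1 point per gene. Black bars are list medians and red points have an unadjusted p under 0.05. The 5 red points, from -2.56 for Nfix to -1.30 for Nfia, are the tested genes of the last list.

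The genes most like each member over the libraries were picked from many, so a high r is in part a result of the picking. The measure was Pearson's r of log2(TPM + 1) over the 16 libraries of the Taar5 line, among 12487 other genes, given as a description since libraries share their completeness. The highest r was that of Ebf4 with Map6, a microtubule-associated protein, at 0.993, followed by Ap3d1, an adaptor subunit, at 0.990, and of Ebf2 with Zfp62 at 0.980 and Pnpla3 at 0.969. Both Ebf genes have a low outlying value in control replicate 2, and without it these were 0.936, 0.910, 0.939 and 0.912. Ldb1 had Rpl7, a ribosomal protein gene, among its closest genes (0.948), at 0.957 without that library. Taar genes were left out of this search, so it says nothing about them, and no OR gene was among the closest genes of any member. Ebf3 lay closest to E2f4 (0.939) and Hist2h3c1 (0.936), Kdm1a to Whsc1 (0.941, and 0.827 without control replicate 2) and Tra2a (0.938 and 0.899), and Lbr to Tnip1 (0.937) and Fadd (0.910).

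The values were lower for the remaining members, with Txn1 (0.890) and Rbm3 (0.888) for Emx2, Orc3 (0.827) and Gnl3l (0.816) for Ebf1, and Fam89b (0.819) and Gm1673 (0.811) for Lhx2. Of the 18 closest genes, 9 stayed among the closest 2 of their member without control replicate 2. Bptf was left out because its median was under 10 TPM.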

How the data were processed

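RNA was measured in 18 libraries of sorted MOE cells. Per the labels and the study's methods, the authors made libraries with Smart-seq2, which adds no molecular identifiers, trimmed reads with Trimmomatic 0.36, mapped them to mm10 with HISAT2 2.1.0 and quantified genes with Cufflinks 2.2.1. The deposited values are TPM, which sum to 1000000 per library, or 1000115 in control replicate 2. How they were derived, the annotation and the treatment of strand and of reads with several matches are not given in the sources used here. TPM keep no depth, so no counting error can be given, and a value of 0 is described as listed at 0.

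Of 23847 rows, 488 repeated a symbol and were summed with it. The values of 13 Taar genes were identical in control replicates 1 and 2, while 0 other genes above 0 were, and they were set missing in replicate 2. Genes that reached 1 TPM in 7 or more of the 16 Taar5 line libraries were fitted with limma 3.58.1 in R 4.3.3 (lmFit, eBayes with trend) on log2(TPM + 1), a scale that understates changes of low genes, with Benjamini-Hochberg adjustment over all genes tested. Exact permutation and sign-flip tests were two-sided (Python 3.11.15, numpy 2.4.6). The fit was tested on simulated data. The labels do not say whether libraries of a group came from separate mice, so p-values measure the spread between these libraries, which may be technical.

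The members and the gene lists were chosen with earlier results of these data known. The text names all 10 members, the 3 genes of each pathway list with the highest mean TPM, and the 2 genes closest to each member with a median of at least 10 TPM, apart from items that are not reported here. All 96 listed genes were found in the table. Alternatives were a pseudocount of 0.1, no filter or one of 5 TPM, quantile normalization, rescaling without receptor genes or to the OSN signalling genes, no trend, array weights, a replicate block, 10 controls, 18 libraries with line as a term, and leaving out libraries. No library was left out of the main comparison.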

Additional observations from a re-analysis of the deposited data

Results flagged for a closer look

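The 10 members in controls and in Taar5+ libraries formed 20 groups of values. In each, the most extreme library was set against the rest with Dixon's criterion at the 95% level. The criterion was applied to TPM and not to log2(TPM + 1), the scale of the comparison. Of these groups, 1 was marked, and chance alone marks about 1 in 20. It was Ldb1 in control replicate 1, at 66.47 TPM, where the other 8 controls held 17.89 to 41.59 TPM. The gap to the nearest control took up 0.512 of the range of the group. Taar5+ replicate 1 had nearly the same value of Ldb1, 66.8 TPM. On the TPM scale low values lie close together, and control replicate 2 was not marked, though it listed Ebf4 and Kdm1a at 0. As log2(TPM + 1), Ebf4 was 0 there and 6.50 to 9.12 in the other 8 controls. The criterion was not applied on that scale, so the absence of a mark does not show that a library was ordinary.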

How the results depend on the processing

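Under 11 settings that used every library of the comparison, the 10 log2 differences gave 110 values, of which 99 kept their sign and side of the threshold, 10 changed sign and 1 passed the threshold. Lhx2 passed with array weights (-0.69, adjusted p = 0.0476 in limma), the 1 member called, and was 0.074 after quantile normalization. Emx2 was 0.000178 with a pseudocount of 0.1 and 0.13 after quantile normalization. Array weights gave -0.14 for Ebf2 and -0.097 for Ebf4. Rescaling to the OSN signalling genes gave -0.054 for Ebf2 and -0.030 for Bptf, a pseudocount of 0.1 gave 0.082 for Kdm1a, and 10 controls gave -0.13 for Bptf. Related genes called were 1 after quantile normalization, 10 with array weights and 1 with 10 controls, and all genes called were 109 after quantile normalization and 1329 with array weights. Leaving out each library in turn, control replicate 2 with Taar5+ replicate 5, or control replicate 2 with Taar5+ replicate 4 (a pair chosen after seeing the data) gave -0.23 to 0.12 for Lhx2, -0.63 to -0.033 for Ldb1, -0.19 to 0.37 for Emx2, -0.47 to -0.25 for Ebf1, -0.28 to 0.29 for Ebf2, -0.32 to 0.13 for Ebf3, -0.29 to 0.89 for Ebf4, -0.94 to 0.022 for Kdm1a, -0.38 to 0.17 for Lbr and -0.014 to 0.22 for Bptf. These fits called 0 members, 0 to 3 related genes, 16 to 337 of all genes (most without control replicate 2 and Taar5+ replicate 5) and, for single libraries, 0 pairs in the order of levels. That last count is no check, because fewer libraries raise the smallest p that the sign-flip test can reach. The causes were not tested.

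Libraries with the same number correlated by -0.0062 to 0.28 in their deviations from the group means, 5 of 7 above 0.1, and 3 of 7 correlated best with their own number, so the numbers were not taken to pair the libraries. With the replicate block 12 of all genes and 0 members were called, and Ebf1 was -0.43 (adjusted p = 0.463 in limma) and Bptf was -0.023. Depth is unknown, so the precision rests on the spread between libraries alone, which left 95% intervals of over 2 log2 units for Emx2, Ebf4, Kdm1a and Lbr.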
